A study of Arabidopsis thaliana with 9 samples.

Results

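GID1A and GID1B encode soluble receptors of gibberellin, the hormone that drives stem elongation, germination and the floral transition in Arabidopsis thaliana. They were followed across a triple mutant of HAP5 genes, a constans mutant and a wild type. The genes were chosen by name: each has 1 probe set that the platform annotation pairs with it alone, 259302_at for GID1A (locus AT3G05120) and 251200_at for GID1B (locus AT3G63010). These are 2 of the 13350 genes that have a probe set matched to a single gene, and 2 of the 3 gibberellin receptor genes, the third being GID1C (AT5G27320, probe set 246782_at). No transcript of either receptor passed the test between any pair of genotypes. The widest difference was in GID1B, whose mean was lower in the triple mutant than in the constans mutant, and it did not pass adjustment over the array.

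Bioactive gibberellin binds a GID1 protein, which then binds DELLA proteins, the repressors of gibberellin responses. The bound DELLA is handed to an SCF ubiquitin ligase, whose F-box subunit is SLY1 or its relative SLY2 (also called SNEEZY), and is degraded. The 3 receptors overlap in function, and GID1B binds gibberellin more tightly than the other two. In Arabidopsis their transcripts are part of a feedback loop, in which DELLA proteins promote receptor expression and gibberellin lowers it.

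RNA was taken from all above-ground tissue and hybridised to Affymetrix ATH1 arrays, 3 per genotype and 9 in all. The triple mutant carries T-DNA knockouts of HAP5 genes, which encode NF-YC subunits of the CCAAT-binding NF-Y complex, and is labelled as Col-0. The constans mutant, given by the labels as co-SAIL with no background named, affects the photoperiodic flowering regulator CONSTANS. The wild type is Col-1, so genotype and background cannot be told apart. Plants of all 3 groups had 4 days of cold at 4 °C, then grew for 10 days at 22 °C in days of 16 h with 8 h nights on fertilised soil treated with a pesticide, and were collected 14 h after lights on. Nothing in the labels states that replicate arrays were grown apart or how many plants each pooled, so the p-values reflect no more than array-to-array spread, which may be technical, and 3 arrays per genotype limit the precision of every value.

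The authors scaled every array to a common trimmed mean, and array medians ran from 33.2 to 37.1. The 25S ribosomal RNA control stood apart, at 22.6 to 418 in wild type, 15.9 to 42.4 in triple mutant arrays and 56.5 to 1152 in constans arrays. The ratio of 3 prime to 5 prime signal ran from 1.80 to 4.46 for GAPDH, 3.16 to 5.09 for actin and 2.76 to 4.11 for ubiquitin. Wild type 3 was lowest for GAPDH and actin, and constans mutant 2 highest for GAPDH and ubiquitin. The part of these ratios in the receptor values was not tested. Of 11 markers listed for above-ground tissue, 4 had a probe set, and their summed signal was 5627 to 7048 in wild type, 5279 to 6802 in triple mutant arrays and 5760 to 7078 in constans arrays. Most of this sum was LHCB4.1, at 4382 to 6126 over all arrays. LHCB4.2 stood at 775 to 842 in the triple mutant, below wild type at 853 to 995 and the constans mutant at 991 to 1177. LHCB4.1, SPCH (53.6 to 76.7 over all arrays) and MUTE (dim, 6.13 to 13.5) overlapped between the genotypes. Of 10 root markers 2 had a probe set. PYK10, a beta-glucosidase abundant in roots and seedlings, stood at 174 to 222 in the triple mutant, 249 to 286 in the constans mutant and 193 to 215 in wild type, and EXPA7, an expansin of root hairs, at 0.632 to 14.99 over all arrays. The 2 together, mostly PYK10, summed to 181 to 228, 249 to 290 and 197 to 223 in the genotypes in that order. EXPA7 lay under the signal required for testing, 18.6, on every array. Without detection calls its presence cannot be told. No flower marker of the 6 listed had a probe set matched to it alone. All these counts rest on the annotation used here, which may leave out genes that the array measures.

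GID1A was measured well above the signal required for testing, 18.6, on every array. Its signal was 111, 84.1 and 124 in wild type, 95, 86.2 and 105 in the triple mutant, and 69.4, 96.3 and 120 in the constans mutant. The 3 genotypes overlapped, with the lowest and the second highest of the 9 values both in the constans mutant and the highest in wild type. The means were 106 ± 20.2 (SD, n = 3) in wild type, 95.5 ± 9.54 (SD, n = 3) in the triple mutant and 95.3 ± 25.4 (SD, n = 3) in the constans mutant. This order, wild type over triple mutant over constans mutant, held no neighbours that differed beyond their spread.

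GID1B was dim. Its signal was 18.8, 16.5 and 16.5 in wild type, 17.0, 15.3 and 11.5 in the triple mutant, and 18.3, 20.4 and 30.4 in the constans mutant. The constans mutant held the 2 highest values of the 9 and the triple mutant the 2 lowest. The means were 17.3 ± 1.33 (SD, n = 3) in wild type, 14.6 ± 2.80 (SD, n = 3) in the triple mutant and 23.0 ± 6.45 (SD, n = 3) in the constans mutant. Constans mutant 3, at 30.4, set most of the spread of its group. A probe set was tested only if the mean of at least 1 genotype reached 18.6, and GID1B met this through the constans mutant alone, since all 3 triple mutant arrays, 2 of the 3 wild-type arrays and 1 of the 3 constans arrays lay under it. With a filter on the mean of all 9 arrays, which required 18.3 and was added after the data were seen, GID1B was not tested. In whole shoots, fewer cells that express a receptor and less receptor RNA per cell cannot be told apart.

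**Figure D1:**
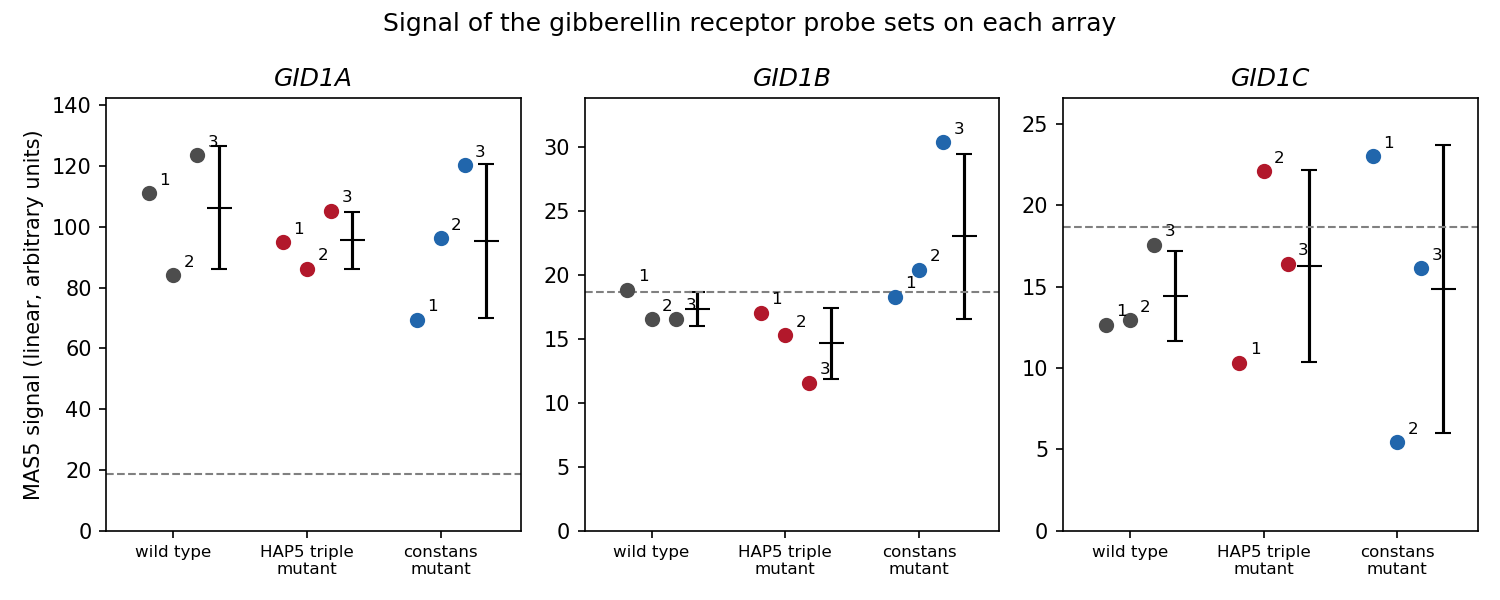
MAS5 signal (linear, vertical axes starting at 0 with a scale of their own) of GID1A, GID1B and GID1C on each of the 9 arrays, by genotype. Points are arrays with their replicate number, the black bar is the mean with its SD (n = 3), and the dashed line is the signal of 18.6 required for testing; GID1A overlaps between genotypes, and GID1B is highest on constans mutant 3 at 30.4.

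Dependence of receptor transcripts on the HAP5 genes was examined by setting the triple mutant against wild type. GID1A had a log2 change of -0.14 ± 0.19 (SE from limma, adjusted p = 0.950), and the 95% interval ran from 1.46-fold lower to 1.20-fold higher. GID1B had a log2 change of -0.26 ± 0.29 (limma adjusted p = 0.936), with an interval from 1.84-fold lower to 1.29-fold higher. In both genes the arrays of the 2 genotypes overlapped, and 0 of the 2 genes passed, as against 0.0917% of the 14173 probe sets tested in this comparison (13 probe sets). Unadjusted p-values were 0.472 for GID1A and 0.388 for GID1B, so 0 of the 2 also lay under 0.05, as against 6.51% of probe sets. Exact permutation tests over the arrays gave two-sided p of 0.5 for GID1A and 0.3 for GID1B, where 3 arrays against 3 cannot go below 0.1.

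Dependence on CONSTANS was examined in the constans mutant. Against wild type, GID1A had a log2 change of -0.17 ± 0.19 (limma adjusted p = 0.815, unadjusted 0.376), with an interval from 1.5-fold lower to 1.18-fold higher. GID1B had a log2 change of 0.38 ± 0.29 (limma adjusted p = 0.704, unadjusted 0.213), with an interval from 1.18-fold lower to 2.00-fold higher, so a doubling of this dim signal was just within it. Constans mutant 1, at 18.3, lay below wild type 1, at 18.8, and the other two constans arrays lay above every wild-type array. Again 0 of the 2 genes passed, as against 1.4% of all probe sets tested (198), or 11.3% at an unadjusted p under 0.05, and exact permutation p was 0.6 for GID1A and 0.2 for GID1B (two-sided). Without constans mutant 3 the GID1B change was 0.16 ± 0.32 (limma adjusted p = 0.945). Without the 3 arrays of highest 25S signal (constans mutant 2 and 3 and wild type 3), which leaves constans mutant 1 as the only constans array, it was 0.05. The GID1A change was 0.04 ± 0.17 without constans mutant 1 and -0.36 ± 0.19 without constans mutant 3, with limma adjusted p of 0.943 and 0.626. Without the 3 arrays of highest 25S signal it was -0.48, a value that rests on constans mutant 1, the lowest array in GID1A.

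The comparison between the 2 mutants gave the widest difference. GID1B was 1.56-fold lower in the mean of the triple mutant than in that of the constans mutant, a log2 change of -0.64 ± 0.29 with a 95% interval of -1.26 to -0.01. Every triple mutant array, at 17.0 at most, lay below every constans array, at 18.3 at least, a gap of about the size of the spread in wild type. Its unadjusted limma p was 0.0455 and its adjusted p 0.273, so it did not pass, and 2366 of the 14173 probe sets had a lower p. Values of this kind were common in this comparison: 22.6% of probe sets had arrays that did not overlap between the mutants (11% lower in the triple mutant), 17.7% had an unadjusted p under 0.05, and 3.38% (479) passed. The exact permutation p was 0.1 (two-sided), the smallest that 3 arrays against 3 can give. GID1B was tested only through the constans mutant, the genotype where it was highest. Its p-values and rank in this comparison rest on that choice. GID1A had a log2 change of 0.03 ± 0.19 (limma adjusted p = 0.948, unadjusted 0.863, exact permutation p = 1), with an interval from 1.30-fold lower to 1.36-fold higher, and its arrays overlapped.

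The size of the GID1B difference between the mutants leaned on the third array of each. Without constans mutant 3 the log2 change was -0.42 ± 0.32 (limma adjusted p = 0.604) and without triple mutant 3 it was -0.48 ± 0.32 (0.516). The arrays of high GID1B also included those of high 25S signal. Constans mutant 2 and 3, the 2 highest in GID1B, had 25S signals of 1152 and 1079, and triple mutant 2 and 3, the 2 lowest in GID1B, had 16.9 and 15.9, the lowest of all. Wild type 3 had a 25S signal of 418 with a GID1B signal of 16.5. The 25S signals of the 2 mutants did not overlap, at 15.9 to 42.4 on triple mutant arrays and 56.5 to 1152 on constans arrays. Genotype and 25S signal therefore cannot be told apart between the mutants. With the log2 25S signal as a covariate the GID1B change was -0.41 ± 0.44 (limma adjusted p = 0.923). Without the 3 arrays of highest 25S signal, with constans mutant 1 as the only constans array left, it was -0.34. For GID1A the same settings gave 0.42 ± 0.25 (limma adjusted p = 0.768) and 0.46, against 0.03 with all arrays. PYK10 was also higher on every constans array than on every other array, at 249 or more against 222 at most, and its part in the GID1B values was not tested.

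**Figure D2:**
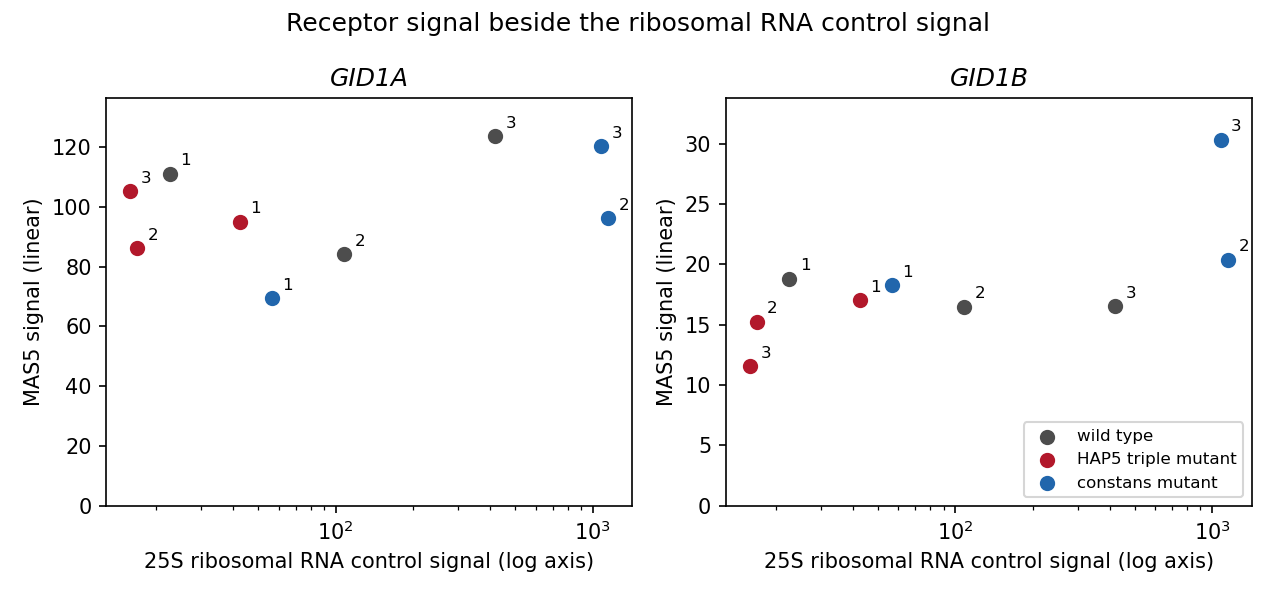
MAS5 signal of GID1A and GID1B (linear vertical axes from 0) against the 25S ribosomal RNA control signal (log horizontal axis), one point per array with its replicate number, coloured by genotype. The 2 arrays with the highest GID1B signal, 20.4 and 30.4, are the constans arrays with 25S signals of 1152 and 1079.

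Both receptors varied between arrays of one genotype more than most probe sets. The SD within genotypes on the log2 scale was 0.30 for GID1A and 0.29 for GID1B, against a median of 0.19 over the 14173 tested, and 80.2% and 78.2% of these had a smaller SD. Relative to the wild-type mean, the constans arrays 1, 2 and 3 stood at -0.60, -0.12 and 0.20 in GID1A and at 0.08, 0.24 and 0.81 in GID1B, on the log2 scale. Constans mutant 3 was thus the highest of its group in both genes and constans mutant 1 the lowest. The triple mutant arrays stood at -0.14, -0.28 and 0.00 in GID1A and at -0.02, -0.18 and -0.58 in GID1B, so that triple mutant 3 was the highest of its group in one gene and the lowest in the other.

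GID1C, the third receptor gene, was too dim to be tested, with a mean under 18.6 in every genotype. Its signal was 12.7, 13.0 and 17.6 in wild type, 10.3, 22.1 and 16.4 in the triple mutant, and 23.0, 5.43 and 16.1 in the constans mutant. The constans arrays alone spanned 4.24-fold and covered all other values. The log2 means differed from wild type by 0.13 (triple mutant) and -0.17 (constans mutant), and by 0.30 between the mutants, with exact permutation p of 0.7, 0.9 and 0.8 (two-sided). When dim probe sets were kept, the limma adjusted p were 0.999, 0.962 and 0.852.

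The rest of the pathway could be followed only in part. Of 52 pathway genes listed, 11 had a probe set matched to them alone in the annotation used here, and 10 of these were tested. None of the 5 DELLA genes, the 5 of early synthesis, the 9 of late synthesis or the 9 of inactivation was among them, and these are not analysed here. Besides the receptors, the tested genes were 4 of DELLA turnover and signalling, 2 partners or targets of DELLA and 2 of gibberellin responses. Of these 8 genes, 0 rose and 0 fell past the limma threshold in any comparison. Unadjusted p-values were under 0.05 for 1 of these genes between triple mutant and wild type, 2 between constans mutant and wild type and 2 between the mutants, as against 6.51%, 11.3% and 17.7% of all probe sets tested, and the adjusted threshold was passed by 0.0917%, 1.4% and 3.38%. Their median log2 change was -0.05, 0.01 and -0.09 in the 3 comparisons, against 0.01, 0.00 and 0.00 over all tested probe sets.

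SLY1, the F-box protein gene of DELLA degradation, had a signal of 69.9, 67.8 and 78.3 in wild type, 61.2, 57.5 and 68.9 in the triple mutant, and 53.5, 89.3 and 86.4 in the constans mutant. Its log2 changes were -0.21 ± 0.18 and 0.05 ± 0.18 against wild type and -0.26 ± 0.18 between the mutants, with limma adjusted p of 0.912, 0.955 and 0.492. The constans mutant held both its lowest and its highest arrays. The change between the mutants was -0.50 ± 0.15 without constans mutant 1 (limma adjusted p = 0.0610), -0.12 ± 0.19 without constans mutant 2 (0.839) and -0.15 ± 0.20 without constans mutant 3 (0.788). SLY2 was dim, with a signal of 14.7 to 20.5 over all arrays and limma adjusted p of 0.950, 0.918 and 0.930. It was tested through wild type alone, whose geometric mean of 18.69 barely reached the 18.65 required, and 2 of 3 arrays of every genotype lay under that. SPY, an O-fucosyltransferase that modifies DELLA proteins, ranged from 87.9 to 132 with both extremes in wild type, and its changes lay between -0.01 and 0.05. SEC, the related O-GlcNAc transferase, ranged from 140 to 179, with changes of 0.11 ± 0.12, 0.03 ± 0.12 and 0.09 ± 0.12 and limma adjusted p of 0.928, 0.967 and 0.748. The fit without the 3 arrays of highest 25S signal left only constans mutant 1 in its group. There the log2 change of SPY was -0.42 from wild type to constans mutant and 0.31 from constans to triple mutant.

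XERICO, a RING-H2 gene promoted by DELLA proteins and tied to abscisic acid accumulation, had the lowest adjusted p of these 8 genes with all arrays. Its signal was 69.7, 59.6 and 44.4 in wild type, 53.1, 67.8 and 61.7 in the triple mutant, and 75.5, 80.8 and 81.9 in the constans mutant. Every constans array lay above every array of the other genotypes, an order met without overlap by 7.38% of probe sets against wild type and by 11% against the triple mutant. The log2 change was 0.48 ± 0.17 against wild type (limma adjusted p = 0.257) and -0.39 ± 0.17 for the triple mutant against the constans mutant (0.249). Against wild type the constans change was 0.30 ± 0.16 without wild type 3 (limma adjusted p = 0.435). It was 0.23 without the 3 arrays of highest 25S signal, with constans mutant 1 as the only constans array. The triple mutant differed from wild type by 0.09 ± 0.17 (0.967).

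EXPA8, an expansin gene of cell wall loosening, was dim and lowest in the constans mutant, at 14.4, 13.3 and 20.0, against 23.5, 31.0 and 21.5 in wild type and 21.7, 31.3 and 17.5 in the triple mutant. The constans arrays lay below all wild-type arrays, as did those of 6.97% of probe sets. Its log2 change against wild type was -0.68 ± 0.29 (limma adjusted p = 0.382). AT1G22690, listed with the gibberellin-responsive genes, had a signal of 312, 253 and 210 in wild type, 204, 212 and 151 in the triple mutant and 294, 235 and 205 in the constans mutant. Its log2 change in the triple mutant was -0.45 ± 0.17 against wild type (limma adjusted p = 0.690) and -0.37 ± 0.17 against the constans mutant (0.276; 0.0699 with the replicate block). The latter was -0.22 ± 0.17 without triple mutant 3 (limma adjusted p = 0.595) and -0.23 ± 0.17 without constans mutant 1 (0.441), and the former was -0.29 ± 0.17 without triple mutant 3 (0.888). Without the 3 arrays of highest 25S signal the change against the constans mutant was -0.65, with constans mutant 1 as its only array. AT5G50915, listed as a partner or target of DELLA, had changes of 0.13 ± 0.14, 0.25 ± 0.14 and -0.11 ± 0.14, with limma adjusted p of 0.922, 0.547 and 0.713.

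**Figure D3:**
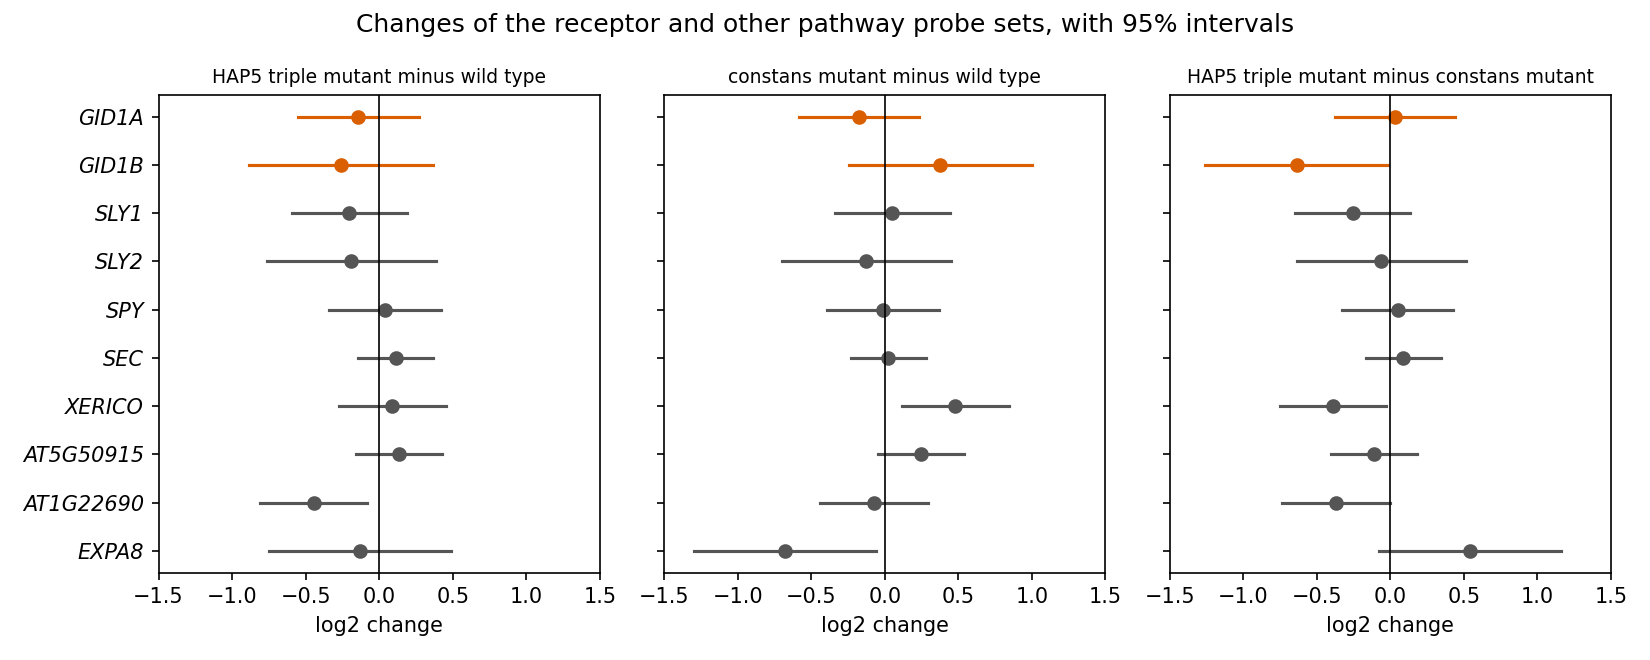
Log2 changes (horizontal axes) of GID1A and GID1B (orange) and of the 8 other tested gibberellin pathway genes (grey) in the 3 comparisons. Points are the limma estimates and lines their unadjusted 95% intervals; no gene passed the adjusted threshold, and the interval of GID1B in the right panel ends at -0.01.

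The genes nearest to the receptors on the chromosome did not stand out. The nearest tested genes on either side of GID1A, AT3G05100 and AT3G05130, had changes between -0.05 and 0.09 on the log2 scale, with limma adjusted p of 0.930 or more. For GID1B these were AT3G62970, 6 genes before, and AT3G63090, 11 genes after. Neither passed in any comparison, and the widest change was that of AT3G63090 in the triple mutant against wild type, 0.42 ± 0.24 (limma adjusted p = 0.836).

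Among the 7690 other tested probe sets of single genes, those most like each receptor were found by Pearson r of log2 signal over the 9 arrays, which share the scaling and background of each array. For GID1A the highest r were 0.94 with AT1G68400, 0.92 with AT4G25710 and 0.90 with RAP, and the lowest were -0.91 with AT5G43100, -0.90 with the brassinosteroid-responsive RING-H2 gene BRH1 and -0.89 with the autophagy gene ATG8G. AT1G68400 was lowest on constans mutant 1, at 52.5, and highest on wild type 3, at 112, the arrays that were also lowest and highest in GID1A.

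For GID1B the highest r were 0.95 with AT3G49210, 0.94 with AT5G11910 and 0.93 with AT3G28540. All 3 were highest on constans mutant 3 and lowest on triple mutant 3, as GID1B was. AT3G49210, also dim, had 44.4 and 8.87 on these arrays. The lowest r were -0.94 with AT1G23030, -0.93 with AT2G26520 and -0.92 with AT4G14230. AT2G26520 had a signal of 22.9, 27.8 and 44.1 in the triple mutant and 17.8, 13.2 and 8.99 in the constans mutant. All of these genes were picked for their pattern over the same 9 arrays, so the order of their arrays, and any difference between the genotypes that follows or opposes that of the receptor, comes with the choice, and no test of them is given.

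**Figure D4:**
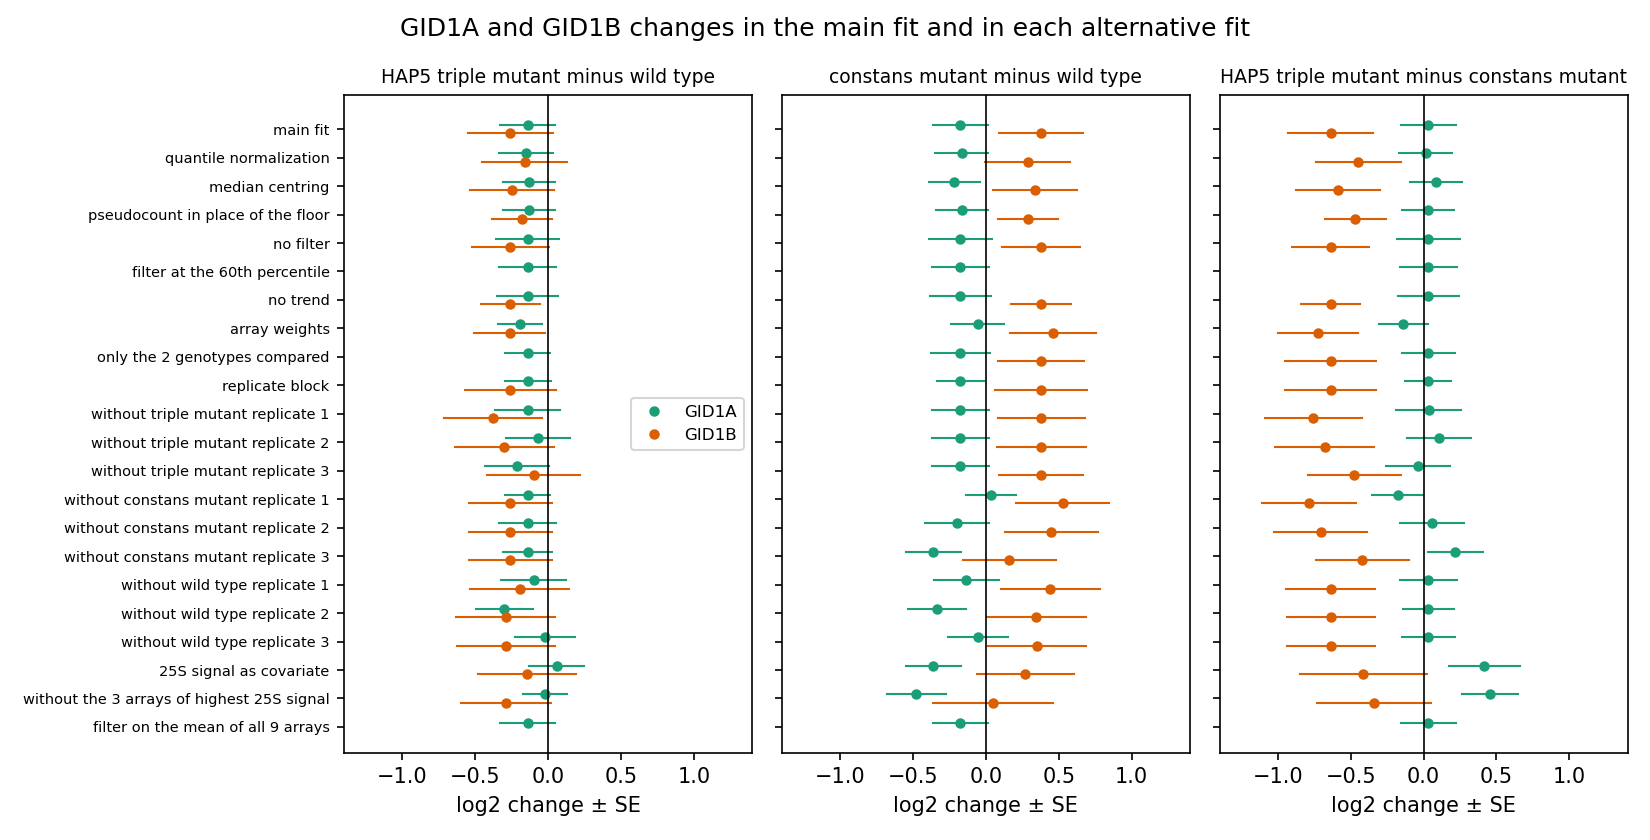
Log2 changes of GID1A (green) and GID1B (orange) with their SE (horizontal axes) in the main fit and in each alternative fit (vertical axis), for the 3 comparisons. GID1B is missing where a filter left it untested; between the mutants its changes run from -0.79 to -0.34, while those of GID1A lie on both sides of 0.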

How the data were processed

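Signals were measured on 9 Affymetrix ATH1 arrays with biotin-labelled one-cycle targets, per the labels' protocols. The deposited table gives an intensity, the MAS5 signal on a linear scale, for 22810 probe sets, which the authors scaled to a common trimmed mean; per the submitters' processing notes MAS5 and GCOS were used, with versions not given in the sources used here. There are no detection calls. The 64 control probe sets were left out. Signals under the pooled 10th percentile (1.03) were raised to it and log2 was taken. A probe set was tested when a genotype's geometric mean reached the 40th percentile of such means (18.6), leaving 14173 of 22746. One limma 3.58.1 model held all 3 genotypes (R 4.3.3; tables in pandas 2.3.3), with an intensity trend and 6 residual degrees of freedom, and p-values were adjusted by Benjamini-Hochberg over all tested probe sets, with 0.05 as the threshold. Tested on simulated data (22746 probe sets, the triple mutant against wild type), it recovered 45.1% of 1.5-fold and 83.3% of 2-fold changes. The changed probe sets were drawn only from those with a mean signal well above the 18.6 required for testing. The rates therefore hold for brighter probe sets and do not tell how often a change in a dim gene would be found. In the measured data of that comparison the limma SE with the intensity trend was 0.29 for the dim GID1B and 0.19 for GID1A. Without the trend it was 0.20 and 0.21, and the SDs within genotypes were 0.29 and 0.30.

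Gene names came from the platform annotation, with the TAIR10.1 gene table for loci and gene order only; all 52 listed loci were in it. The members, the gene lists and the alternatives were chosen with earlier results of these data known. Text names the receptors, the tested pathway genes and, per receptor, the 3 probe sets of highest and the 3 of lowest r; flanking genes, GID1C and PYK10 were added. Replicate numbers were not used to pair the arrays in the main fit. Deviations of same-numbered arrays correlated at -0.04 to 0.23 (median 0.07), above 0.1 in 3 of 9 pairs. Those of differently numbered arrays correlated at -0.32 to 0.20 (median -0.03), above 0.1 in 3 of 18 pairs. Whether the numbers pair the arrays was not settled. The alternatives were quantile normalization, median centring, a pseudocount of 6.60 in place of the floor, no filter or one at the 60th percentile, no trend, array weights, a fit of 2 genotypes, the replicate block, leaving out each array, the 25S covariate, leaving out the 3 arrays of highest 25S signal and a filter on the mean of all arrays.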

Additional observations from a re-analysis of the deposited data

How the results depend on the processing

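Neither GID1A nor GID1B passed the adjusted threshold in any comparison under any alternative that tested them: of 119 values, 114 kept the direction and 0 passed, with a lowest limma adjusted p of 0.111 (GID1B between the mutants with array weights). Many of these directions could not change, since a different filter, trend or replicate block keeps the log2 change of the main fit. The same holds for the fit of 2 genotypes and for leaving out an array of the genotype not compared. No pathway probe set passed under any alternative, and the lowest adjusted p was 0.0610 (SLY1 between the mutants without constans mutant 1). GID1B kept its direction in every fit that tested it, and was not tested with a filter at the 60th percentile or on the mean of all 9 arrays, nor, for the triple mutant against wild type, in the fit of those 2 genotypes. GID1A reversed in the triple mutant against wild type with the 25S covariate (0.057) and between the mutants with array weights (-0.14), and the cause was not tested. Leaving out each array gave GID1A changes of -0.30 to -0.02 and -0.36 to 0.037 in the triple and constans mutants against wild type and -0.18 to 0.22 between the mutants, and GID1B changes of -0.38 to -0.10, 0.16 to 0.53 and -0.79 to -0.42. The replicate block holds an array of each genotype at each number, so it could not move the log2 changes. GID1A stayed at -0.14, -0.17 and 0.03 and GID1B at -0.26, 0.38 and -0.64. The limma adjusted p with the block were 0.886, 0.717 and 0.932 for GID1A and 0.899, 0.684 and 0.282 for GID1B. The block changed no call on these genes, and the count of all calls went from 13 to 20 in the triple and 198 to 234 in the constans mutant, and from 479 to 661 between the mutants.

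Among other pathway genes, all uncalled, 459 of 499 values kept the direction, a count that also includes fits whose direction could not change. With the 25S covariate, reversed changes in the triple mutant against wild type were 0.020 for SLY1, -0.012 for SPY and -0.036 for XERICO, those in the constans mutant -0.16 for SLY1, 0.037 for SPY and 0.13 for AT1G22690, and those between the mutants 0.18 for SLY1 and -0.049 for SPY. The fit without the 3 arrays of highest 25S signal left only constans mutant 1 in its group. In that fit the reversed changes were -0.10 for SPY and -0.090 for XERICO in the first, 0.85 for GID1C, -0.36 for SLY1, -0.13 for SEC and 0.066 for AT1G22690 in the second, and -0.57 for GID1C, 0.069 for SLY2 and 0.22 for SLY1 in the third comparison. Others were SLY2 between the mutants with quantile normalization (0.13), EXPA8 in the triple mutant with array weights (0.072) and SEC in the constans mutant with median centring (-0.017). Leaving out each array crossed 0 in the triple mutant against wild type for EXPA8 (-0.36 to 0.059), SPY (-0.10 to 0.19) and XERICO (-0.090 to 0.24). In the constans mutant it did so for AT1G22690 (-0.21 to 0.071), SEC (-0.088 to 0.086), SLY1 (-0.080 to 0.29) and SPY (-0.15 to 0.14). Between the mutants it did so for SPY (-0.083 to 0.20) and, over the 7 omissions that left SLY2 tested, for SLY2 (-0.21 to 0.016). GID1C was tested in only 2 of the 9 omissions (without triple mutant 1 and without constans mutant 2), with changes of -0.17 to 0.44 in the constans mutant and -0.31 to 0.59 between the mutants. Calls over all probe sets ranged over the alternatives from 4 (no trend) to 99 (array weights) in the triple mutant and from 37 (without the 3 arrays of highest 25S signal) to 275 (array weights) in the constans mutant, and from 132 (25S covariate) to 1192 (array weights) between the mutants. With median centring the r of GID1B with AT4G14230 was -0.76; no other r moved by 0.1 or more. The 3 arrays per genotype and the dim signals of GID1B and GID1C limit what could be detected.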
